A study of Mus musculus with 6 samples.

Results

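Border-associated macrophage genes were followed in microglial RNA from mice with EAE (experimental autoimmune encephalomyelitis), an immunization model of multiple sclerosis. The genes were chosen by symbol, as 8 markers of the macrophages of the brain's borders: Lyve1, Siglec1, Mrc1, Cd163, Stab1, Folr2, F13a1 and Pf4. All 8 were measured, each by 1 probe set, among 19505 named genes on the array. The CKO group held 3 samples and the control group 3, each hybridised to 1 array. CKO samples came from female C57BL/6 mice whose genotype is given as a B cell conditional knock-out, and by the title of the series it concerns B cells expressing the cytokine GM-CSF. Control samples came from female C57BL/6 mice whose genotype is given only as control. All mice, CKO and control, were immunized under the skin with 100 μg of recombinant myelin oligodendrocyte glycoprotein in incomplete Freund's adjuvant and received 300 ng of pertussis toxin into the blood at immunization and 48 h later. Brain microglia were collected at the peak of disease. The sources used here do not give the deleted gene, the Cre driver, the age of the mice, any pooling of samples or the method of cell isolation. The design addresses how brain microglia differ in EAE when a gene is deleted in B cells. Nothing in the labels says that replicates are separate animals, so each p-value reflects the spread among the 6 samples alone, and that spread may be technical.

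Border-associated macrophages live in the meninges, the choroid plexus and the spaces around vessels, and are distinct from microglia, which live in the tissue itself. They take up blood-borne and cerebrospinal material through scavenger and glycan receptors, and several of the genes described here encode such receptors. In mice, a subset rich in Lyve1 and Folr2 and a subset rich in MHC class II are usually distinguished. Monocytes that enter the inflamed brain can express some of the same genes.

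Median log2 values of the arrays were 7.18 to 7.34 in CKO and 7.13 to 7.20 in controls, with 22206 probe sets per array. CKO replicates 2 and 3 had narrow interquartile ranges of 3.08 and 3.11, against 4.0 on CKO replicate 1 and 3.66 to 3.74 on the control arrays. Over all probe sets, CKO replicate 1 correlated with the control arrays at 0.940 to 0.975. Its correlations with CKO replicates 2 and 3 were lower, at 0.932 and 0.937, while those 2 arrays correlated with each other at 0.974. Astrocyte markers averaged 13.23 on CKO replicate 1 and 11.85 on control replicate 2; they averaged 9.57 and 9.71 on the remaining CKO arrays and 9.12 and 9.59 on the remaining control arrays. Microglial markers were high on every array: P2ry12, a purine receptor of microglia, stood at 19.65, 19.72 and 19.70 in CKO and at 19.31, 19.35 and 18.76 in controls. The labelled cell type was therefore present throughout, and the border macrophage genes were read in isolates in which microglial RNA was abundant. In such bulk RNA, fewer cells of a type and less RNA per cell cannot be told apart.

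Lyve1 was higher in CKO than in controls, while Siglec1, F13a1 and Pf4 were lower, and for these 4 genes the CKO and control arrays did not overlap. For Mrc1, Cd163, Folr2 and Stab1 the groups overlapped. No member passed the two-sided limma test after Benjamini-Hochberg adjustment over all probe sets, called at an adjusted p under 0.05, a level reached by 0.00901% of probe sets, all lower. At an unadjusted p under 0.05, 3 members were lower and 1 was higher, where 6.35% of all probe sets were lower and 3.55% higher, or 9.89% in either direction. Groups without overlap were found for 8.48% of all probe sets with CKO below control and for 5.94% with CKO above, or 14.4% in all. The median difference of the 8 members was -0.61 on the log2 scale, against 0.05 over all named genes, and it was -0.36 without CKO replicate 2. The members were chosen with earlier results of these data known, so these counts describe them and do not set them apart.

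**Figure D1:**
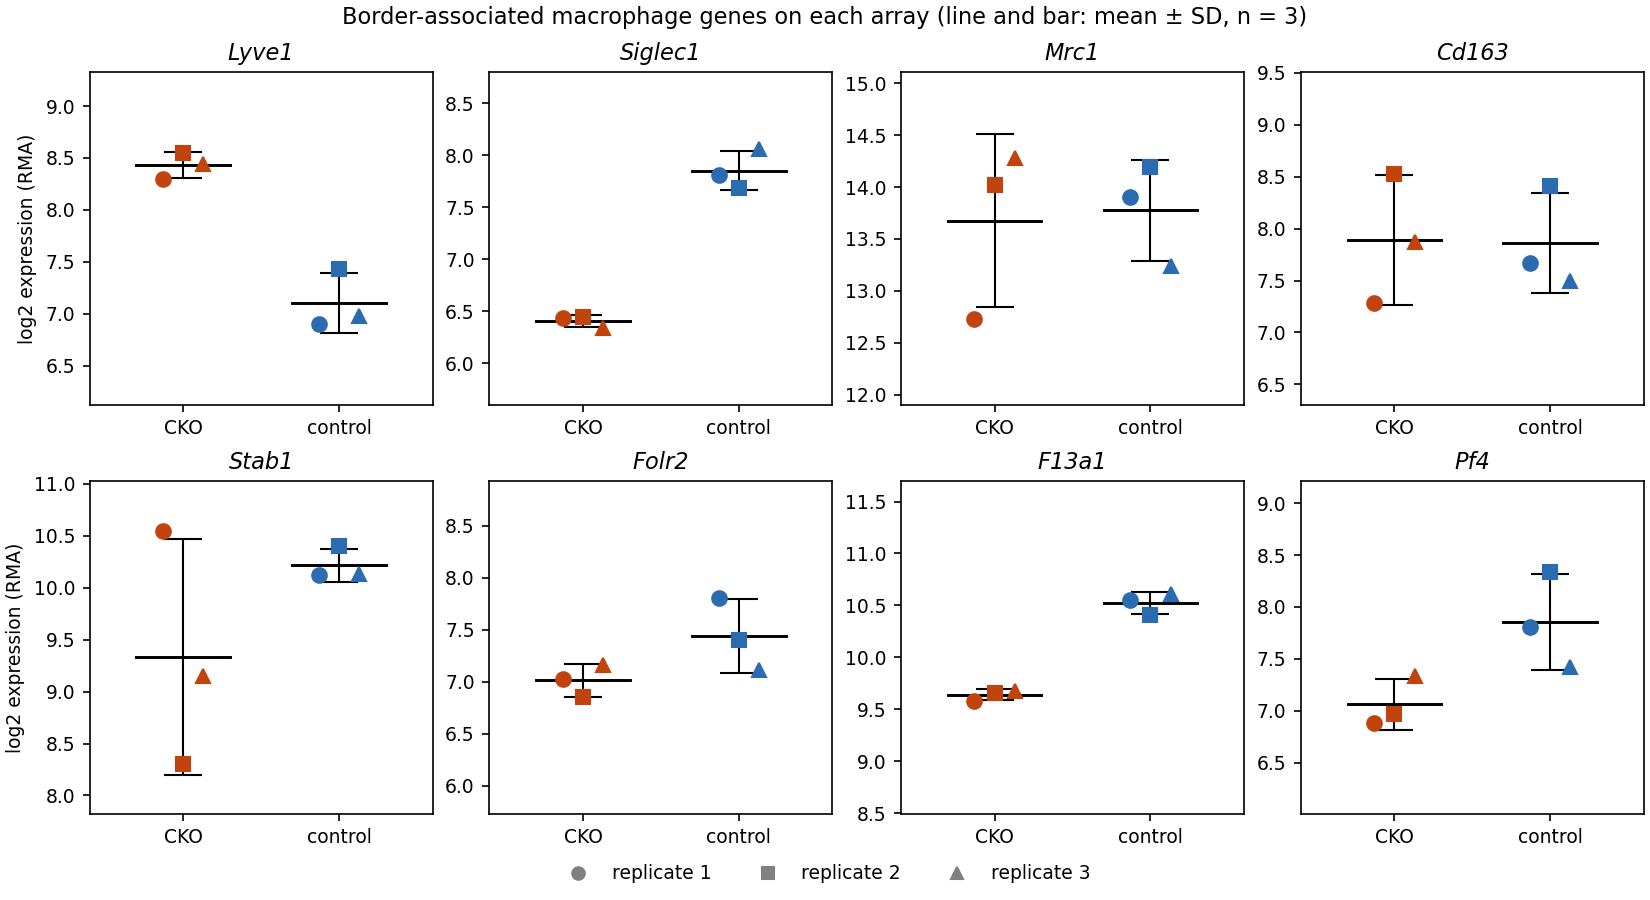
Log2 expression (vertical axis, RMA values, each panel spanning the same range) of the 8 border-associated macrophage genes on 3 CKO arrays (left) and 3 control arrays (right). Symbols mark the replicate, the long line is the group mean and the bar its SD; Lyve1 lies higher in CKO, and Siglec1, F13a1 and Pf4 lie lower without overlap.

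Lyve1 encodes a hyaluronan receptor carried by border macrophages and by lymphatic vessels. It was at 8.30, 8.55 and 8.44 on the CKO arrays and at 6.90, 7.43 and 6.98 on the control arrays. Every CKO array lay above every control array, and the gap between the groups exceeded the spread within each. The difference was 1.33 on the log2 scale (SE 0.27, 95% confidence interval 0.70 to 1.95), or 2.51-fold, and it did not pass the test (adjusted p = 0.145). It lay between 1.23 and 1.49 with any 1 array left out. Without CKO replicate 1 it passed (1.39, adjusted p = 0.025), in a setting that called 5.01% of all probe sets higher and 4.94% lower. Only the CKO arrays of narrow range remain there, so group and array range cannot be told apart. With any other array left out, Lyve1 did not pass (adjusted p = 0.125 to 0.636). Array weights, which gave CKO replicate 1 the lowest weight (0.258), called 3 members, Lyve1 (1.45, adjusted p = 0.0198), Siglec1 (-1.46, adjusted p = 0.0171) and F13a1 (adjusted p = 0.0483), where 2.87% of all probe sets were called higher and 4.76% lower.

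Markers of lymphatic endothelium, which also carries Lyve1, overlapped between the groups. Of 8 such genes 0 separated the groups, where 14.4% of all probe sets did, so the count lies near that share. Their median difference was 0.09, between -0.18 and -0.01 under the 4 other scalings of the arrays. Their mean level was 6.13 to 6.29 on the CKO arrays and 6.06 to 6.31 on the control arrays. Prox1, the transcription factor that defines lymphatic identity, was at 9.0, 7.40 and 8.47 in CKO and at 8.17, 8.54 and 8.56 in controls. Pdpn, a surface glycoprotein of lymphatic vessels, was at 8.38, 8.13 and 7.26 in CKO and at 8.17, 8.50 and 7.70 in controls. Neither gene separated the groups. Of the 8 genes 3 had lower and 5 had higher CKO means (2 to 4 higher under the 4 other scalings). Ccl21a, with the smallest p of the list, was at 7.09, 8.30 and 8.08 in CKO. Its control values were 7.08, 6.98 and 7.58 (difference 0.61, adjusted p = 0.603). Stab2, Mmrn1, Tbx1 and Flt4 were dim, their means lying between percentiles 0.086 and 16.2 of all probe sets, so their overlap says little.

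Siglec1 encodes sialoadhesin (CD169), a macrophage receptor for sialic acid whose gene is inducible by interferon. It was at 6.43, 6.44 and 6.34 in CKO and at 7.81, 7.69 and 8.06 in controls. The CKO arrays lay within a narrow band below all controls, and their values fell between percentiles 30.6 and 39.8 of all probe sets on their array, against 56.3 and 61.5 on the control arrays. The difference was -1.45 (SE 0.26, interval -2.04 to -0.86, adjusted p = 0.108), or 2.73-fold lower in CKO. It was the member with the lowest adjusted p. Without CKO replicate 1 it passed (-1.46, adjusted p = 0.0186), in the setting that called 4.94% of all probe sets lower. With any other array left out, Siglec1 did not pass (adjusted p = 0.117 to 0.567).

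Type I interferon response genes were lower beside Siglec1: 18 of 18 measured genes had lower CKO means, 0 of them passed the test, and the median difference was -1.94. Their mean level was 7.62 to 7.95 on the CKO arrays and 8.77 to 10.49 on the control arrays. Ifit3, an antiviral effector, was at 10.43, 10.85 and 10.82 in CKO and at 13.71, 12.48 and 14.23 in controls. Oasl2, an oligoadenylate synthetase-like gene, was at 9.83, 9.90 and 9.37 in CKO and at 12.67, 11.39 and 12.89 in controls. Control replicate 2 was the lowest control for both interferon genes and for Siglec1. The SD among the controls (n = 3) was 0.19 for Siglec1, 0.90 for Ifit3 and 0.81 for Oasl2. The part of the interferon response in the Siglec1 value was not tested.

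Mrc1 encodes the mannose receptor (CD206), which binds and internalizes glycoproteins. It was at 12.73, 14.02 and 14.28 in CKO and at 13.90, 14.19 and 13.24 in controls. The groups overlapped fully, and CKO replicate 1 was the lowest of the 6 arrays. The difference was -0.10 (SE 0.45, interval -1.14 to 0.94, adjusted p = 0.951), and its sign turned under quantile normalization (0.13), scale normalization (0.40) and cyclic loess (0.17). The interval leaves room for a change of either sign as large as that of F13a1.

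The scavenger receptor genes Cd163 and Stab1 overlapped between the groups. Cd163, the receptor for haptoglobin-haemoglobin complexes, was at 7.28, 8.53 and 7.87 in CKO and at 7.67, 8.41 and 7.50 in controls (difference 0.03, SE 0.40, interval -0.88 to 0.94, adjusted p = 0.982; -0.09 with median centring). Stab1 encodes stabilin-1, which clears modified lipoproteins and matrix fragments. It was at 10.55, 8.30 and 9.15 in CKO and at 10.12, 10.40 and 10.13 in controls. CKO replicate 1 was thus the highest of all 6 arrays, while CKO replicates 2 and 3 lay below every control. The difference was -0.88 with a wide error (SE 0.52, interval -2.07 to 0.30, adjusted p = 0.588). Without CKO replicate 1 it was -1.49 and passed (adjusted p = 0.029), in the setting that called 4.94% of all probe sets lower. Without CKO replicate 2 it was -0.37. With any array but CKO replicate 1 left out, Stab1 did not pass (adjusted p = 0.738 to 0.907). The CKO values of Stab1 therefore rested on which arrays were included more than those of Lyve1 or Siglec1 did.

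Folr2 encodes folate receptor beta, a folate-binding surface protein of tissue macrophages. It was at 7.03, 6.85 and 7.16 in CKO and at 7.81, 7.40 and 7.11 in controls. The groups overlapped by a single pair, CKO replicate 3 above control replicate 3, and did not overlap under the 4 other scalings. The difference was -0.43 (SE 0.29, interval -1.09 to 0.23, adjusted p = 0.628), and it was -0.24 without control replicate 1.

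The secreted products F13a1 and Pf4 were lower in CKO. F13a1 encodes the A subunit of coagulation factor XIII, which cross-links fibrin and is made by macrophages, monocytes and platelets. It was at 9.58, 9.66 and 9.68 in CKO and at 10.55, 10.41 and 10.61 in controls. These replicates lay close together, with an SD of 0.05 in CKO and 0.10 in controls, and the groups lay apart. The difference was -0.88 (SE 0.25, interval -1.45 to -0.31, adjusted p = 0.272), and it lay between -0.94 and -0.84 with any 1 array left out. Under the 4 other scalings it ran more widely, from -1.01 to -0.65. Pf4 encodes platelet factor 4 (CXCL4), a chemokine of platelets and border macrophages. It was at 6.88, 6.97 and 7.34 in CKO and at 7.81, 8.34 and 7.42 in controls. The groups did not overlap, but CKO replicate 3 and control replicate 3 lay close together. The difference was -0.79 (SE 0.32, interval -1.53 to -0.06, adjusted p = 0.474).

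Other cell types also express these secreted products. Blood monocyte markers were lower in CKO in 11 of 11 measured genes, 0 of which passed, with a median difference of -1.99. Their mean level was 11.18 to 11.97 on the CKO arrays and 12.79 to 13.52 on the control arrays. Fn1, the matrix protein fibronectin, was at 7.62, 8.30 and 7.55 in CKO and at 10.0, 10.40 and 10.51 in controls. Lyz2, lysozyme, was at 15.36, 16.25 and 16.59 in CKO and at 17.92, 18.13 and 18.19 in controls. Platelet and megakaryocyte markers were mixed: of 8 measured genes 4 were lower and 4 higher with 0 passing, their median difference was 0.12 (-0.11 to -0.00 under the 4 other scalings), and their mean level was 6.26 to 6.77 in CKO and 6.18 to 6.56 in controls. Ppbp, another chemokine of platelet granules, was at 4.66, 4.19 and 4.50 in CKO and at 4.81, 4.96 and 4.40 in controls, at or below percentile 12.3 of every array. Among the 4 higher genes, Itga2b differed by 1.14, Gp9 by 0.53 and Treml1 by 0.73 (adjusted p = 0.404, 0.606 and 0.547). The part of monocytes in the F13a1 and Pf4 values was not tested.

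Promoter sequences of F13a1 and Pf4, which were lower together, are shown beside that of Mrc1, whose groups overlapped. RefSeq promoter windows (GRCm38.p6, 250 bases before to 30 after a start site) matched 6 of the 8 members and gave 8 windows; Lyve1 and Siglec1 were not matched. Capitals mark GAGGAAG or its reverse complement CTTCCTC, a core recognised by PU.1, the transcription factor of the myeloid lineage. The windows lie at chr13:37049184-37049463 (minus strand) and chr13:37050215-37050494 (minus strand) for the 2 start sites of F13a1, chr5:90772185-90772464 (plus strand) for Pf4 and chr2:14229164-14229443 (plus strand) for Mrc1.
F13a1, start site at the lower coordinate: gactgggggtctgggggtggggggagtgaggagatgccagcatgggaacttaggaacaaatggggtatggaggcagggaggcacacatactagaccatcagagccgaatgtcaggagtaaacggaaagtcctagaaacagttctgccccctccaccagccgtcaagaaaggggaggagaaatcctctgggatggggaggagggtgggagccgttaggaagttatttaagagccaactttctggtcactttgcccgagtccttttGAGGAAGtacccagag
F13a1, start site at the higher coordinate: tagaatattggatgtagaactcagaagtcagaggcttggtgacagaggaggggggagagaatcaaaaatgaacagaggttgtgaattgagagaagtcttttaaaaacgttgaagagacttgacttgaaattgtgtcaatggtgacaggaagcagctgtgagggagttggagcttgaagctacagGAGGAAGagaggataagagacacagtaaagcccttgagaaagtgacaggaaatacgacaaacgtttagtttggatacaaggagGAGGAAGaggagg
Pf4: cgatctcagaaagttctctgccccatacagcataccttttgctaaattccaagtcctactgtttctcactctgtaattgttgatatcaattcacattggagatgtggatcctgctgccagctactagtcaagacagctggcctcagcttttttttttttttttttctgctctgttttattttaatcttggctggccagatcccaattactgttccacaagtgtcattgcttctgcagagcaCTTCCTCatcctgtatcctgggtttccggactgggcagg
Mrc1: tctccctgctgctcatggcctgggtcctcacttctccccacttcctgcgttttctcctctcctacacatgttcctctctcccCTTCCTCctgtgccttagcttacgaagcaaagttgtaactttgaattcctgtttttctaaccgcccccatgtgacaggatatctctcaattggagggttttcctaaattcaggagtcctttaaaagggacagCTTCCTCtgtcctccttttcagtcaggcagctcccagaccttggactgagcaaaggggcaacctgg

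The 4 windows printed are those of the members that hold the PU.1 core. It occurred on either strand in 4 of the 8 member windows and in 12.2% of the 32851 promoter windows of that length. The 8 windows come from 6 genes, and both F13a1 windows are among the 4, so windows are not separate genes. The difference in share was not tested. The windows of Cd163, Folr2 and Stab1 held 0 matches. Of the genes with a match, F13a1 and Pf4 lay apart between the groups and Mrc1 overlapped. A partial site of the MAF factors, TGCTGA, was searched on both strands and occurred in both Folr2 windows and in that of Stab1, and in 18.2% of all windows. The core of the interferon-stimulated response element, GAAANNGAAA, occurred in 0 of the 8 windows and in 3.28% of all windows. No window of a member held more than 1 of the 3 motifs, so no matches overlapped. A match describes letters in a window and not a bound site.

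The members did not move as a block. Likeness was measured as the root mean square difference between log2 values, each gene centred on its own mean over the 6 arrays, so that 0 means the same profile. The closest pair was Siglec1 and F13a1 (0.29), followed by F13a1 and Folr2 (0.33), Pf4 and Folr2 (0.35), F13a1 and Pf4 (0.35) and Mrc1 and Cd163 (0.36). Mrc1 and Cd163 shared their pattern over the arrays: both were lowest on CKO replicate 1, and among controls both were highest on replicate 2 and lowest on replicate 3. Lyve1 was the farthest from Siglec1 (1.41) and Stab1 (1.33), and its nearest member was Cd163 (0.72). The 6 arrays are the only points behind these values, and they share the astrocyte and range differences given above.

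Differences between members on the same array do not depend on a constant shift of that array. The log2 value of Lyve1 minus that of Siglec1 was 1.87, 2.11 and 2.10 in CKO and -0.91, -0.26 and -1.08 in controls, a shift of 2.78. Lyve1 minus F13a1 was -1.28, -1.11 and -1.24 in CKO and -3.65, -2.98 and -3.63 in controls, a shift of 2.21. Lyve1 minus Mrc1 was -4.43, -5.47 and -5.84 in CKO and -7.0, -6.76 and -6.26 in controls, a shift of 1.43. In all 7 such pairs the CKO arrays lay above the control arrays, with shifts of 1.29 (against Cd163) to 2.78. The 7 pairs share the Lyve1 values and were set up with the Lyve1 result known, so they were not tested. Siglec1, F13a1, Pf4 and Folr2, each set against Mrc1, overlapped between the groups, with shifts of -1.35, -0.78, -0.69 and -0.33.

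**Figure D2:**
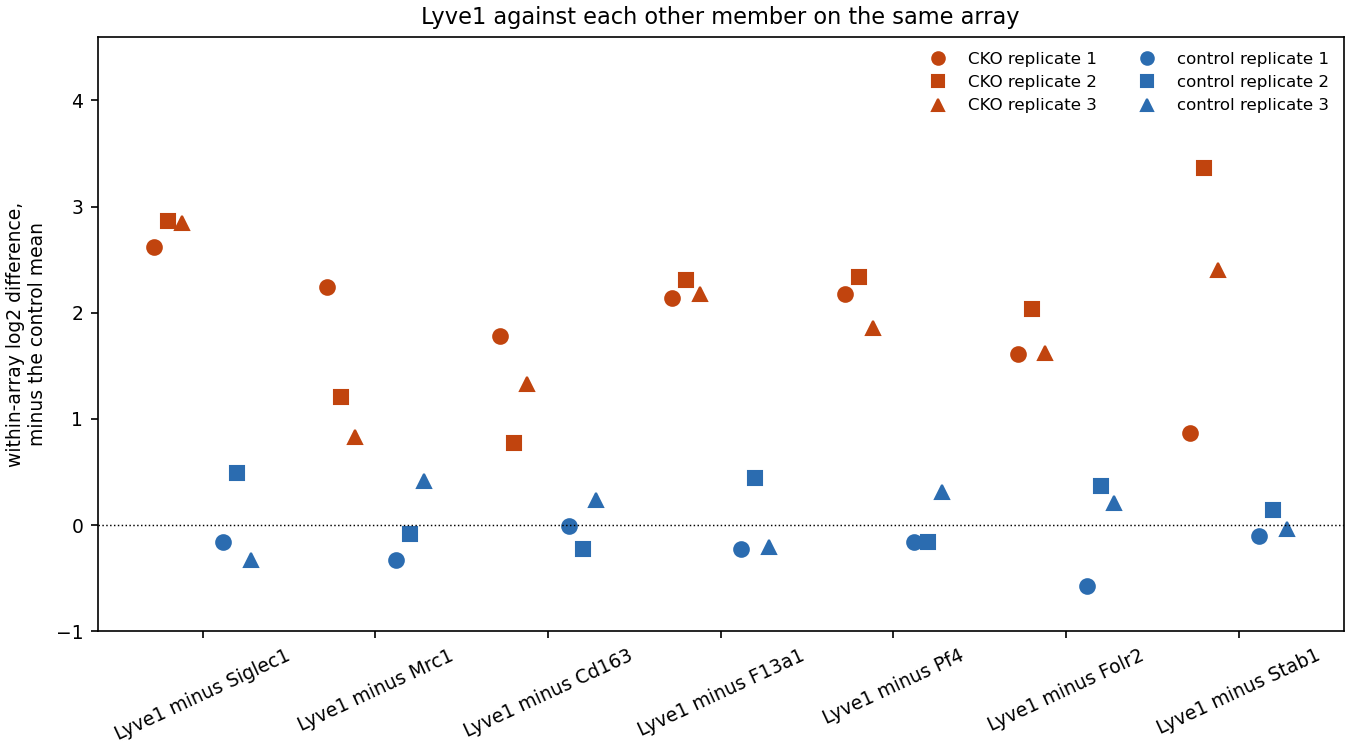
Log2 value of Lyve1 minus that of each other member on the same array (vertical axis), shifted so that the control mean of each pair is 0; CKO arrays stand left of control arrays and symbols mark the replicate. In all 7 pairs the 3 CKO arrays lie above the 3 control arrays, with the smallest gap against Mrc1 and the widest CKO spread against Stab1.

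Further genes of border macrophages also lay in both directions. Of 24 measured genes 15 had lower and 9 higher CKO means, with a median difference of -0.31, and 0 passed the test. Leaving out CKO replicate 3 gave a median of -0.15, and leaving out control replicate 1 gave -0.17. At an unadjusted p under 0.05, 6 were lower and 1 was higher, where 6.35% of all probe sets were lower and 3.55% higher. The arrays lay apart with CKO below for 7 genes and with CKO above for 4 (2 or 3 under the other scalings). Over all probe sets these shares were 8.48% and 5.94%. Of the 4 above, Fcna and Vsig4 were dim, with means at percentiles 4.7 and 8.4 of all probe sets. They differed by only 0.22 and 0.26, against 1.51 for Hpgd and 0.54 for Slc40a1. Ednrb, whose groups overlapped, differed by 1.01. It was highest on CKO replicate 1 and control replicate 2, the arrays high in astrocyte markers. The list's mean level was 8.62 to 9.0 on the CKO arrays and 9.15 to 9.50 on the control arrays.

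Among the lower genes, Ccl8, a chemokine of border and perivascular macrophages, was at 6.13, 6.40 and 7.40 in CKO and at 9.79, 9.11 and 10.73 in controls (difference -3.23, SE 0.49, adjusted p = 0.0891). Ms4a7, a membrane-spanning gene that separates border macrophages and monocyte-derived macrophages from microglia, was at 8.60, 9.77 and 9.11 in CKO and at 11.25, 11.37 and 12.59 in controls (-2.58, adjusted p = 0.108). Clec4n, the fungal lectin receptor dectin-2, was at 6.46, 7.0 and 8.09 in CKO and at 9.22, 9.63 and 10.70 in controls (-2.67, adjusted p = 0.121). These 3 differences were larger than that of any member, and their groups lay well apart. Blood monocyte markers were lower as well (median difference -1.99), and the part of monocytes in these 3 values was not tested. Dab2, an endocytic adaptor, differed by -1.21 (adjusted p = 0.345), and Ninj1, a protein of membrane rupture and adhesion, by -1.07 (adjusted p = 0.247), both with every CKO array below every control.

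Hpgd, which inactivates prostaglandins, shared the direction of Lyve1 and had the smallest p of the further genes with higher CKO means. It was at 15.70, 16.30 and 16.06 in CKO and at 14.85, 15.04 and 13.65 in controls (difference 1.51, SE 0.41, adjusted p = 0.245). All CKO arrays lay above the controls, and control replicate 3 was the lowest array. The mean of Hpgd lay at percentile 98.8 of all probe sets, against 57.7 for Lyve1. Ltc4s, the leukotriene C4 synthase, overlapped between the groups at 15.38, 13.58 and 13.94 in CKO and 14.54, 14.30 and 13.72 in controls (0.11, adjusted p = 0.947). Control replicate 3 was also low for microglial markers, 9 of 11 of which had higher CKO means with 0 passing the test. Fcrls, a microglial Fc receptor-like gene, was at 18.82, 18.36 and 18.31 in CKO and at 17.40, 17.82 and 16.64 in controls (difference 1.21, adjusted p = 0.312). The part of microglia in the Hpgd and Ltc4s values was not tested.

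**Figure D3:**
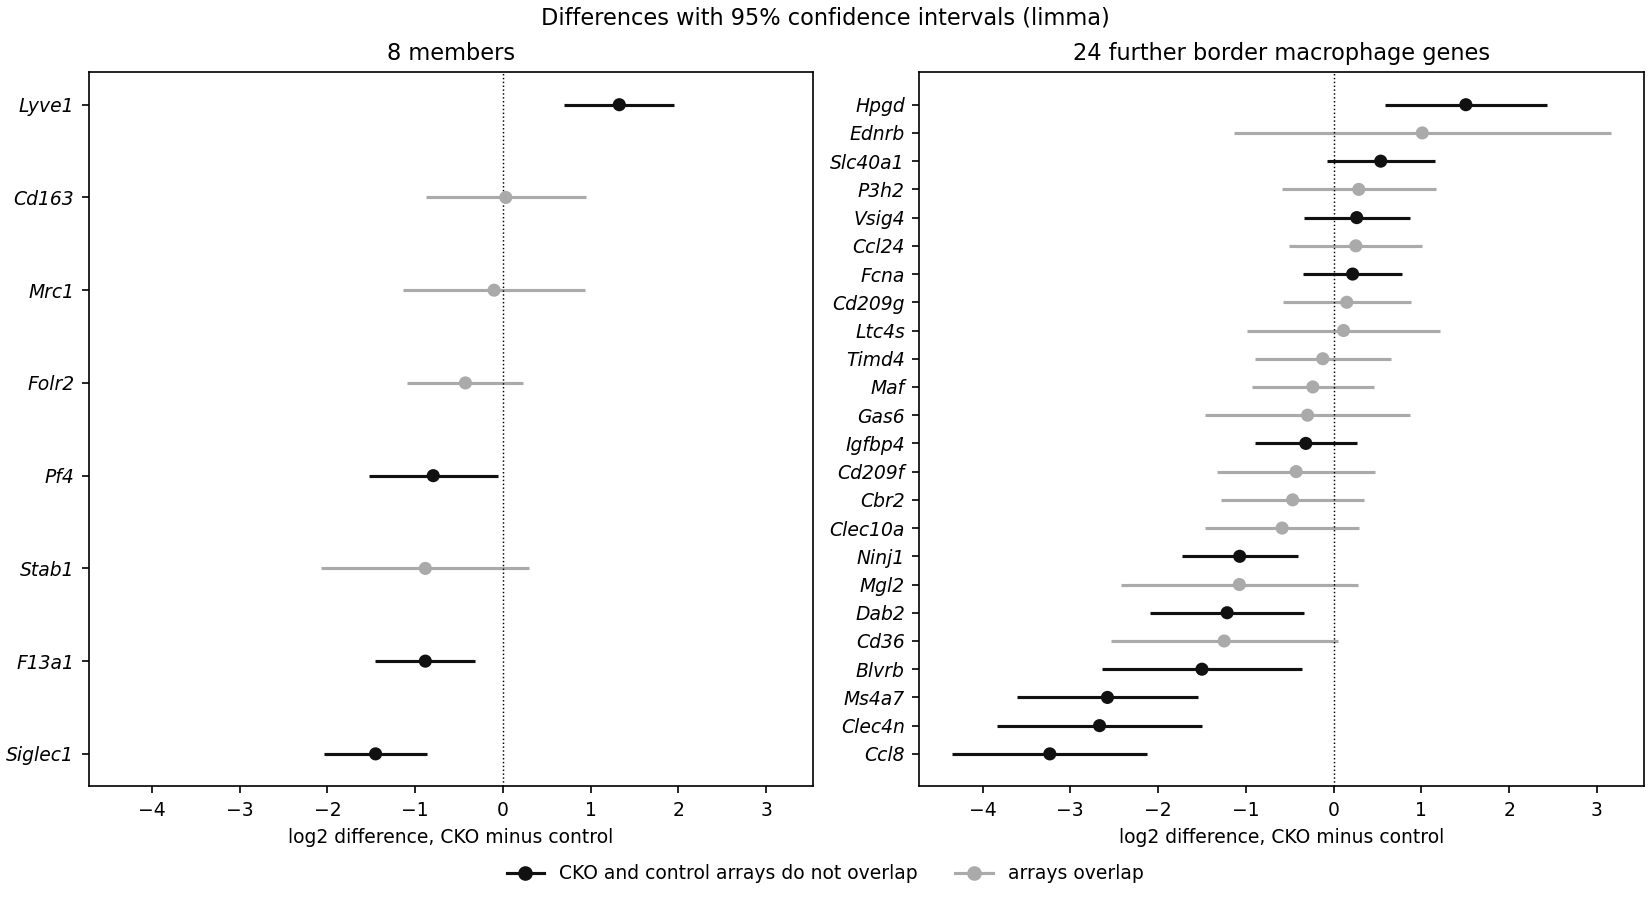
Log2 difference, CKO minus control (horizontal axis), with 95% confidence intervals from limma for the 8 members (left) and 24 further border macrophage genes (right), ordered by difference. Black marks genes whose 3 CKO and 3 control arrays do not overlap and grey those that overlap; Lyve1 stands highest among the members at 1.33, and Ccl8 lowest among the further genes at -3.23.

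Set beside T cell markers, the 8 members showed the narrower gap between group means. Of the members 6 were lower and 2 higher in CKO, so opposite differences partly cancel in their mean. The mean level of the 8 members was 8.60 to 8.78 on the CKO arrays and 8.88 to 9.28 on the control arrays, with group means of 8.68 in CKO and 9.08 in controls. For T cell markers the group means were 7.0 in CKO and 9.95 in controls. T cell markers were lower in CKO in 10 of 10 measured genes, 0 of which passed, with a median difference of -2.89. Cd3d, a CD3 subunit of T cells, was at 6.16, 6.52 and 6.63 in CKO and at 9.94, 8.75 and 9.93 in controls. Whether the lists differ from one another was not tested. Astrocyte markers were high on CKO replicate 1 and control replicate 2, where Mrc1 stood at 12.73 and 14.19, Stab1 at 10.55 and 10.40 and Lyve1 at 8.30 and 7.43. With the mean of the astrocyte markers as a covariate, Lyve1 differed by 1.31 (adjusted p = 0.0444) and Siglec1 by -1.43 (adjusted p = 0.0279), in a setting that called 0.959% of all probe sets higher and 1.55% lower.

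**Figure D4:**
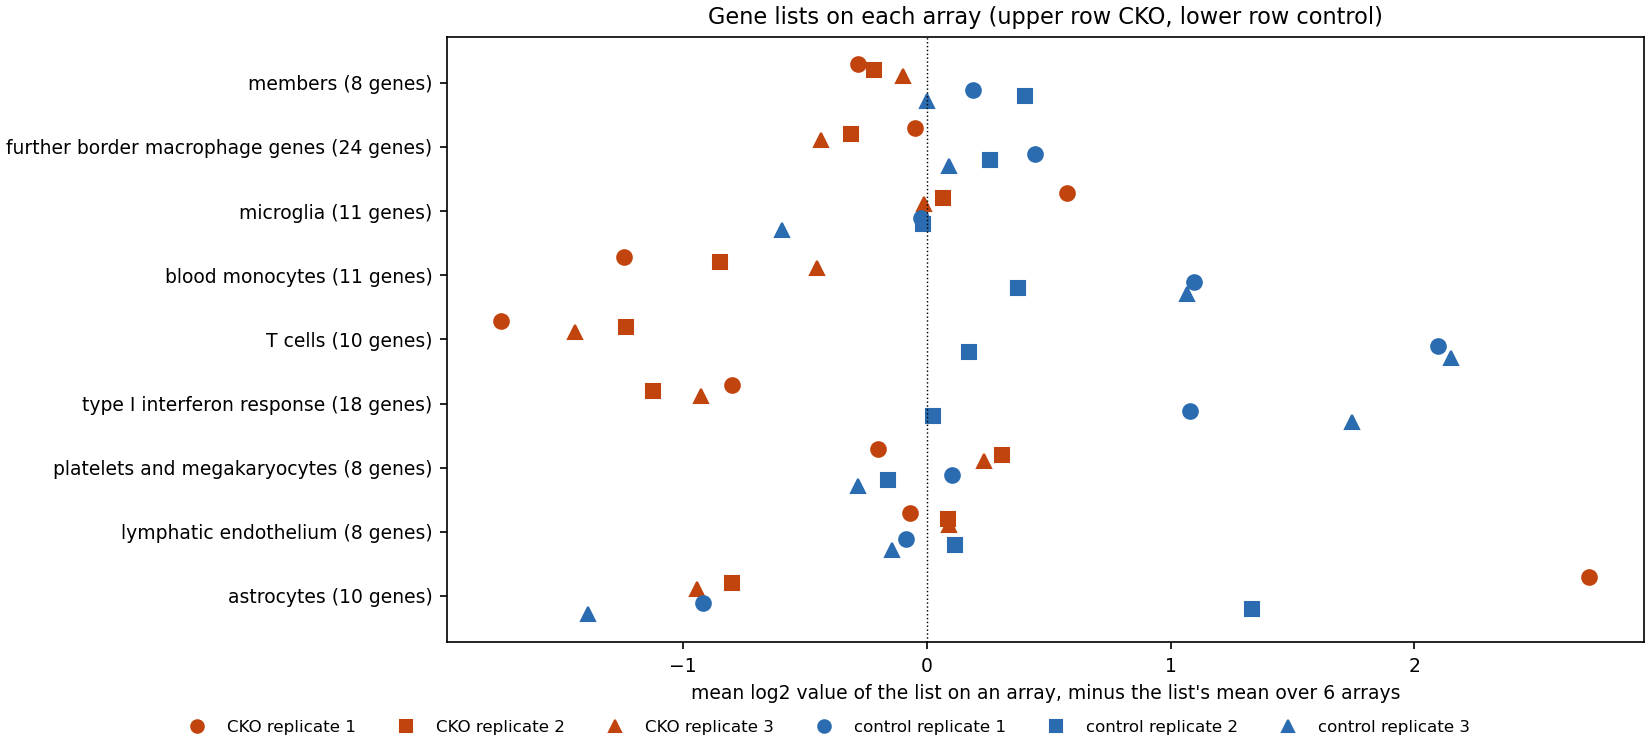
Mean log2 value of each gene list on an array minus the mean of that list over the 6 arrays (horizontal axis), with CKO arrays in the upper and control arrays in the lower row of each list and symbols for replicates. Members of the border macrophage list span less than the T cell list, whose CKO arrays lie at 6.73 to 7.24 and control arrays at 8.65 to 10.63, and the astrocyte list is highest on CKO replicate 1.

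The genes most like Lyve1 over the 6 arrays were sought among 9327 named genes with at least median expression. They were Rapgef5, an activator of Rap GTPases (root mean square difference 0.15), Zfp938, a zinc finger gene (0.24), Upk1b, a uroplakin (0.25), and Cyp2j6, an epoxygenase (0.25), where the median gene lay at 0.86. Rapgef5 was at 13.49, 13.46 and 13.54 in CKO and at 12.19, 12.57 and 12.37 in controls, and its controls took the same order as those of Lyve1. The genes most like Siglec1 were Cstb, the protease inhibitor cystatin B (0.14), Sh2d1b1, an adaptor of SLAM receptors (0.15), Ms4a6b, a membrane-spanning leukocyte gene (0.15), and Prdm1, the transcription factor Blimp-1 (0.16), where the median gene lay at 0.75. Cstb was at 9.65, 9.31 and 9.63 in CKO and at 10.88, 10.71 and 11.08 in controls, in the same order among controls as Siglec1. None of these 8 genes was a member or a further border macrophage gene.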

How the data were processed

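RNA of brain microglia from 3 CKO and 3 control samples was hybridised after labelling with a whole-transcript kit from Affymetrix (per the labels' protocols). The deposited values are on the log2 scale, as their range shows, with 1 per probe set on each array, and the authors made them with RMA, which corrects background, normalizes arrays and summarises probes, per the submitters' processing notes. The sources used here do not give its version or settings. Interquartile ranges of 3.08 to 4.0 show that the deposited values do not share a common distribution over the arrays. Of 22206 probe sets, 19572 named 1 gene in the platform annotation, 0 named several and 2634 are unnamed here. The probe set with the highest mean stood for a gene; 0 members had more than 1 probe set, and 0 shared identical values with another. Signal over background was not analysed here, so the level of dim genes is uncertain, and the number of arrays limits the precision.

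Groups came from the sample titles. The limma package (3.58.1, R 4.3.3) fitted CKO minus control with lmFit and eBayes and no covariate, two-sided, adjusted over all probe sets at 0.05. SE and 95% confidence intervals are those of the moderated fit. The fit was tested on simulated data. An exact permutation test of 3 against 3 arrays was not used. The members and gene lists were chosen with earlier results of these data known. The rule for named genes took all members and the 4 genes most like Lyve1 and Siglec1. It took the 6 further border macrophage genes with the smallest p and the 2 with the highest mean. From each marker list it took the 2 with the highest mean and the 2 with the smallest p, not all of which are shown. Ppbp and genes named for their low level were added after their values were seen. Markers of blood vessel endothelium and of fibroblasts with pericytes are described among the other observations. Some listed genes were not analysed here. Promoter windows are from RefSeq (GRCm38.p6); the sources used here name no build for the probe annotation. Other settings were quantile, median, scale and cyclic loess normalization, removal of the dimmest 20% or 50%, limma's trend and robust options, array weights, an astrocyte marker covariate, a block for replicate number, averaging a gene's probe sets, a threshold of 0.1 and each array left out; the omission of CKO replicates 2 and 3 together was chosen after seeing the data.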

Additional observations from a re-analysis of the deposited data

How the results depend on the processing

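Lyve1 stayed higher, and Siglec1, F13a1, Pf4 and Folr2 stayed lower, in CKO under every alternative run; Siglec1 was too dim for the test on the brighter 50% of probe sets. The count of members called was 0 and became 3 with array weights (Lyve1, Siglec1 and F13a1), 2 with the astrocyte covariate (Lyve1 and Siglec1) and 0 to 3 with 1 array left out, the 3 being Lyve1, Siglec1 and Stab1 without CKO replicate 1. For the further border macrophage genes the count of 0 became 7 with array weights, 4 with the astrocyte covariate, 1 at an adjusted p of 0.1 and 0 to 7 with 1 array left out. Over all probe sets the count of 2 became 1 under quantile normalization and after removal of the dimmest 20% or 50%, 4 with the trended robust fit, 1694 with array weights, 558 with the astrocyte covariate, 44 at an adjusted p of 0.1, 0 without CKO replicates 2 and 3 (which leaves 1 CKO array, assumed to vary like the controls) and 0 to 2209 with 1 array left out, highest without CKO replicate 1, which leaves the 2 CKO arrays of narrow range; it was 125 without control replicate 2. The sign of Mrc1 turned under quantile normalization (0.13), scale normalization (0.40), cyclic loess (0.17), array weights (0.25) and the astrocyte covariate (0.013), and it ran from -0.40 to 0.37 with 1 array left out. Cd163 turned with median centring (-0.09) and without CKO replicates 2 and 3 (-0.58), and ran from -0.285 to 0.34 with 1 array left out. Stab1 turned without CKO replicates 2 and 3 (0.33). The cause of these turns was not tested. Median centring moved the median of all probe sets by -0.12 and scale normalization by -0.11; relative to that median Lyve1 differed by 1.26 to 1.31 and Siglec1 by -1.59 to -1.51 over the 5 scalings. With the replicate number as a block, 0 members, 0 further genes and 0 of all probe sets were called. Same-numbered CKO and control arrays deviated from their group means with correlations of -0.0055, -0.23 and 0.254. For differently numbered arrays the correlations ran from -0.334 to 0.304. With 3 arrays per group these values cannot settle whether the numbers pair the samples.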

Other observations

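Vessel-associated genes were also read in these isolates. Of 8 markers of blood vessel endothelium 3 were lower and 5 higher in CKO (4 and 4 under scale normalization), and 0 passed the limma test. At an unadjusted p under 0.05, 3 were lower and 0 higher, where 6.35% of all probe sets were lower and 3.55% higher. Kdr, a receptor for vascular endothelial growth factor, was at 7.28, 7.15 and 7.36 in CKO and at 8.50, 7.57 and 8.30 in controls (difference -0.86, adjusted p = 0.423), and Flt1, a second such receptor, was at 7.20, 7.56 and 7.03 in CKO and at 7.90, 7.73 and 8.17 in controls (-0.67, adjusted p = 0.487). For both genes every CKO array lay below every control array, as for 8.48% of all probe sets. The median difference of the list was 0.20 (-0.04 to 0.11 under the 4 other scalings). Among the 5 higher genes, Emcn differed by 0.83, Cdh5 by 0.68 and Tek by 0.32, with overlapping groups. Ly6c1, which is also expressed by leukocytes, was at 14.0, 13.60 and 15.05 in CKO and at 16.16, 14.29 and 16.33 in controls, and Pecam1 overlapped between the groups (difference 0.14). Of 8 fibroblast and pericyte markers 3 were lower and 5 higher, 0 passed, and Pdgfrb, the pericyte growth factor receptor, was at 7.0, 7.05 and 6.65 in CKO and at 6.50, 6.57 and 6.58 in controls (0.35, adjusted p = 0.653). Itga2b, a platelet integrin chain, was at 8.14, 9.40 and 9.62 in CKO and at 7.89, 7.82 and 8.04 in controls (1.14, adjusted p = 0.404).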
